A study of Mus musculus with 16 samples.

Results

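Infarcted ventricles of neonatal mice that lack *Lrrc10* were compared with infarcted ventricles of WT mice, by RNA sequencing across all genes with enough reads in both groups. A gene was included when its summed count was at least 10 in KO MI and at least 10 in WT MI, and 21142 of the 51912 genes in the table met this. The WT MI group holds 4 libraries (replicates 1 to 4) and the KO MI group holds 4 libraries (replicates 1, 2, 3 and 7). Both groups had a myocardial infarction (MI) by surgery on postnatal day 1, and ventricles were taken 7 days later. Sham-operated mice of both genotypes (WT SH and KO SH, 4 libraries each) had the same ages and are used only beside the MI values. WT mice were C57BL/6J animals from a supplier, whereas Lrrc10-/- mice came from a separate line made in the C57BL/6 background and lack the gene in every cell. *Lrrc10* loss and any other difference between the mouse lines therefore cannot be told apart here. Whole ventricles were used, so a change in the RNA of a cell type and a change in its number cannot be told apart either. The labels do not say how the mice of a group are related, and p-values measure only the spread between these libraries. The question was how the transcriptome of ventricles that do not regenerate differed from that of ventricles that do.

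LRRC10 is a small leucine-rich repeat protein of cardiomyocytes, found near the sarcomere, where it associates with actin and with the L-type calcium channel. The newborn mouse heart can replace lost muscle for a few days after birth, through division of existing cardiomyocytes. In the same days the heart muscle turns from glucose and lactate to fatty acids as its main fuel, and cardiomyocytes leave the cell cycle.

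*Lrrc10* (ENSMUSG00000060187, chromosome 10 of GRCm39, 116881246 to 116882673) had between 1247 and 1355 counts in the WT MI libraries and 0 in all 4 KO MI libraries. Since a count of 0 in a library allows up to 3 counts, it was at least 345-fold lower in KO MI. The totals were 43166794 to 46184203 counts in WT MI and 33783874 (replicate 7) to 49334247 in KO MI, so that 3 counts stand for 0.0577 to 0.08 CPM (counts scaled to the TMM-normalised library). These floors cover counting error only. Ventricular cardiomyocyte RNA was abundant in every library: the 25 cardiac sarcomere genes, among them *Myh6*, *Tnnt2*, *Tnni3*, *Actc1* and *Myl2*, summed to 75196 to 78686 CPM in WT MI and 72183 to 77950 CPM in KO MI. KO MI replicate 2 lay farthest out on the first principal component (31.3% of the variance) and replicate 7 on the second (23.9%). On the first, the 4 KO MI libraries (−3.21 to 31.43) also all lay above the WT MI libraries (−15.83 to −5.38).

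Genes were called differentially expressed (DEGs) at a Benjamini-Hochberg adjusted p under 0.1 by the edgeR quasi-likelihood test, with a log2 fold change of 0.5 or more in either direction. KO MI and WT MI differed in 345 DEGs, which is 1.63% of the genes tested. Of these, 113 rose in KO MI (0.534%) and 232 fell (1.1%). The median log2 fold change of all genes was 0.01, with 48.3% of genes below 0 and 51.7% above. Of the 21142 genes tested, 2523 had an unadjusted edgeR p under 0.05, the share to set beside such counts in the gene lists. Protein-coding genes made up 241 of the DEGs, and 283 DEGs had no overlap between the 4 KO MI and the 4 WT MI libraries, a separation that 6.27% of all genes tested showed. Apart from unnamed transcripts and pseudogenes, 111 DEGs fell and 43 rose among those that averaged 1 CPM or more and did not overlap. Each of the 30 genes of this kind with the largest changes had an exact permutation p of 0.0286, the smallest that 4 against 4 libraries can give and one that a lack of overlap fixes.

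Among these filtered genes the largest fall was that of *Ctsk*, the gene of cathepsin K, a collagen-degrading protease of the lysosome (ENSMUSG00000028111, chromosome 3, 95406178 to 95416732). Its level was 4.14, 4.94, 4.70 and 4.23 CPM in WT MI replicates 1 to 4, and 0.0609, 0.177, 0.288 and 0.213 CPM in KO MI replicates 1, 2, 3 and 7. Every KO MI library was thus more than an order of magnitude below every WT MI library, with a log2 fold change of −4.59 (SE 0.25, adjusted p = 4.61e-09). *S100a10*, the partner of annexin A2 at the plasma membrane (chromosome 3, 93462213 to 93474510), was at 59.3, 54.5, 54.6 and 52.7 CPM in WT MI and at 16.6, 19.5, 18.0 and 14.8 CPM in KO MI. It fell by 1.68 on the log2 scale (SE 0.09, adjusted p = 4.61e-09), and the libraries within each group were close together. *H2ac18*, a histone H2A gene (chromosome 3, 96152813 to 96153398), was at 212 to 241 CPM in WT MI and at 62.3 to 80.6 CPM in KO MI, and fell by 1.65 (SE 0.12, adjusted p = 3.71e-07). Histone genes are near-identical copies among which RSEM divides reads, so this value is uncertain.

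*Lynx1*, which encodes a membrane-anchored modulator of nicotinic acetylcholine receptors (chromosome 15, 74619687 to 74624895), was at 79.0, 44.5, 80.2 and 79.5 CPM in WT MI and at 10.9, 6.45, 10.6 and 4.48 CPM in KO MI. It fell by 3.11 on the log2 scale (SE 0.38, adjusted p = 2.19e-04), and the lowest WT MI library was still well above the highest KO MI library. *Cmtm8*, a gene of the chemokine-like factor family of membrane proteins (chromosome 9, 114618411 to 114673648), was at 3.86 to 6.52 CPM in WT MI and at 0.346 to 0.774 CPM in KO MI, and fell by 3.33 (SE 0.30, adjusted p = 5.49e-06). *Slc6a17*, a transporter of neutral amino acids, and *Gal3st2c*, a sulfotransferase, were at 1.24 to 5.17 CPM in WT MI and at 0.0534 to 0.488 CPM in KO MI, and fell by 3.88 and 3.51 (adjusted p = 0.0025 and 0.00266). Several KO MI values of *Ctsk* and *Slc6a17* rest on few reads, since 3 counts in a library make up to 0.08 CPM. The other large falls were those of *Rpl29* (−1.83), *Kcnd2* (−1.81), *Tmc7* (−1.72), *Zfp993* (−1.50), *Slc38a3*, a glutamine transporter (−1.44), *Rxfp1*, the relaxin receptor (−1.41), *Mrpl52* (−1.41) and *Nr4a1* (−1.34). Calls for *Mrpl52*, *Zfp993* and *Rxfp1* were lost under 10, 2 and 2 of 18 other settings.

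Among the genes that rose, *Gabrg3*, a subunit of the GABA-A receptor (chromosome 7, 56366213 to 57036936), was at 0.483, 0.472, 0.629 and 0.434 CPM in WT MI and at 6.05, 1.47, 2.69 and 3.87 CPM in KO MI. Its log2 fold change was 2.80 (SE 0.41, adjusted p = 0.00118). *Frem2*, an extracellular matrix protein of basement membranes (chromosome 3, 53421359 to 53564812), was at 72.9, 84.4, 81.1 and 72.2 CPM in WT MI and at 179, 236, 174 and 146 CPM in KO MI, and rose by 1.24 (SE 0.10, adjusted p = 2.2e-06). *Slc16a7*, the monocarboxylate transporter MCT2, which carries pyruvate and lactate (chromosome 10, 125055129 to 125225463), was at 5.4, 6.05, 5.64 and 6.34 CPM in WT MI and at 16.1, 15, 14.3 and 17.2 CPM in KO MI. It rose by 1.41 (SE 0.21, adjusted p = 0.00121), with narrow ranges in both groups. *Plekha7*, a protein of adherens junctions, rose by 1.27 (8.90 to 19 CPM in WT MI, 26.5 to 39.5 CPM in KO MI), *Pkdcc*, a secreted kinase, by 1.21, and *Nrg1*, the ligand of the ErbB receptors of cardiomyocytes, by 1.21. *Nrg1* was at 3.21 to 6.12 CPM in WT MI and at 7.42, 19, 8.55 and 6.43 CPM in KO MI, with replicate 2 far above the rest. Without that library its log2 fold change was 0.74, and its call was lost with only the MI libraries (adjusted p = 0.187) and without replicates 2 and 3 (0.15). *Hif3a*, *Unc13c*, *Ddc*, *Lrrc75b*, *Nxpe3* and *Tpbgl* rose by 0.96 to 1.3, and the *Tpbgl* call was lost under 10 of 18 other settings, with 0.69 (adjusted p = 0.286) without KO MI replicate 3. *Serpina3n* and *Tpm3-rs7* had log2 fold changes of 1.63 and 2.62, but their calls were lost under 8 of 17 and 9 of 18 other settings, and *Serpina3n* was at 0.83 (adjusted p = 0.327) without KO MI replicate 3.

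**Figure D1:**
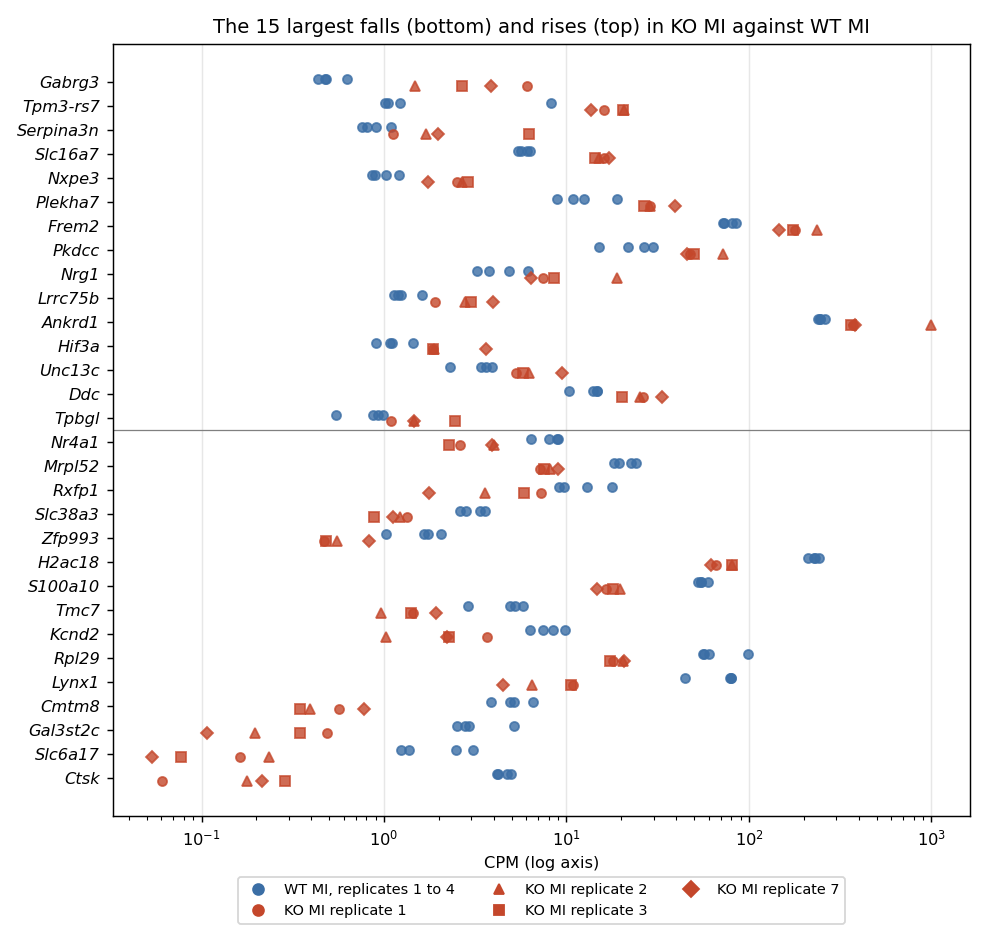
Level of each of the 15 genes with the largest fall and the 15 with the largest rise, in CPM on a log axis, with 1 point per library (blue, WT MI; red, KO MI, with a symbol for each replicate). No gene has overlapping groups, which the choice of genes fixes; *Ankrd1* in KO MI replicate 2 (999.8 CPM) lies away from the other 3 KO MI libraries.

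The same genotypes were compared post-sham in libraries that the MI comparison does not share. KO SH and WT SH differed in 1006 DEGs of 20159 genes tested (4.99%). Of the 345 post-MI DEGs, 336 were also tested post-sham, 302 of them had the same sign there (89.9%), and 172 were post-sham DEGs with the same sign. That is 51.2% of the post-MI DEGs tested and 17.1% of the post-sham DEGs. Falls were more often shared than rises by count: 135 of 226 tested falls were falls post-sham (2.52% of all genes were), and 37 of 110 tested rises were rises post-sham (2.47% of all genes were). The difference between these shares was not tested. Y-linked *Uty* was at 29.9 to 36.7 CPM in all 4 WT SH libraries, but at 34.4 and 34.9 CPM in 2 KO SH libraries and at 0 and 0.027 CPM in the other 2, whereas each MI group held 2 libraries of either kind. Sex and genotype are thus not balanced post-sham, and the part of sex in the post-sham and interaction values was not tested. Over the 336 genes the log2 fold change post-sham had a median of 0.667 times that post-MI. These genes were chosen by their post-MI values, so this ratio does not show a weaker genotype difference post-sham. The share of all genes with the same sign in both comparisons was not counted.

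Genes that fell in both conditions included *S100a10* (−2.0 post-sham), *H2ac18* (−1.83), *Cmtm8* (−3.04), *Lynx1* (−2.66), *Kcnd2* (−1.09) and *Nr4a1* (−2.39). *Ctsk* had too few reads in KO SH to be tested and averaged 3.82 CPM in WT SH and 0.0556 CPM in KO SH. *Gabrg3* (2.88) and *Frem2* (0.79) rose in both. *Slc16a7* differed post-MI, where it had a log2 fold change of 1.41, and had one of 0.14 post-sham, with means of 14.5 CPM in WT SH and 16 CPM in KO SH. The WT SH mean hides a wide spread, with single libraries at 22.11, 14.86, 13.85 and 7.09 CPM. The KO MI libraries lay near the sham means, and the WT MI libraries were below every sham library. The lowest WT SH library was close to the WT MI range, however, so the distance between WT MI and WT SH is uncertain. The test of the difference between the 2 fold changes of *Slc16a7* gave an adjusted p of 0.146 (edgeR interaction term, Benjamini-Hochberg adjustment), above the threshold.

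**Figure D2:**
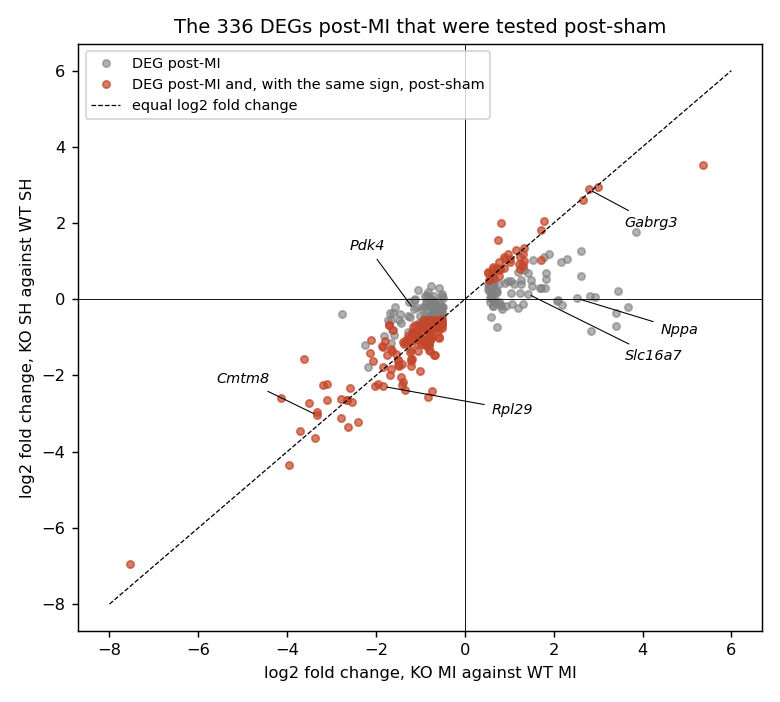
Log2 fold change of KO SH against WT SH (vertical axis) against that of KO MI against WT MI (horizontal axis) for the 336 post-MI DEGs tested post-sham; red points are the 172 that were DEGs with the same sign in both, and the dashed line marks equal values. Most points lie in the lower left and upper right, and *Slc16a7*, *Nppa* and *Pdk4* lie near 0 post-sham.

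A direct test of whether the genotype difference itself differed between MI and sham called 5 of 20159 genes (0.0248%), and 2726 genes had an unadjusted p under 0.05. The count depended on the setting, at 209 with DESeq2, 689 with the replicate block, 157 without WT SH replicate 4, 831 without KO MI replicate 7 and 2 to 9 without any other single library. The block also leaves KO MI replicate 7 out of the comparison, since no other group holds a replicate 7. *Nr4a3*, an orphan nuclear receptor of the immediate early class, was at 23.8, 27.2, 11.8 and 19.2 CPM in WT SH, against 1.78, 3.13, 2.80 and 2.99 CPM in KO SH. In the infarcted hearts it was at 3.73 to 5.94 CPM in WT MI and 3.43 to 7.02 CPM in KO MI, which overlap. Its log2 fold change was −2.94 post-sham and 0.05 post-MI, and the difference of 2.99 had an adjusted p of 0.00321. *Sik1*, a salt-inducible kinase, was also highest in WT SH, at 41.5 to 50.5 CPM in WT SH, 15.4 to 19.9 in KO SH, 21.2 to 27.3 in WT MI and 16.1 to 18.2 in KO MI (difference 0.84, adjusted p = 0.0401), and its WT MI and KO MI libraries did not overlap. The other 3 were *Bhlhb9*, *Tomm40*, which encodes the mitochondrial import channel, and *Gm43605*, and only *Gm43605* was also a post-MI DEG.

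The DEGs were unevenly spread over the chromosomes of GRCm39. They made up 4.02% of the genes tested on chromosome 14, 3.47% on chromosome 3 and 3.32% on chromosome 7, but 0.35% on chromosome 16 and 1.41% on chromosome 10, where *Lrrc10* lies. Within 10 Mb on either side of *Lrrc10*, 4 of 122 genes were DEGs (3.28%, against 1.63% of all genes), *Slc16a7* and *Kcnc2* among them. When chromosomes were cut into bins of 5 Mb, 12 bins held at least 5 DEGs. These bins held 83 DEGs among 866 genes tested, and 43 of the 83 were post-sham DEGs with the same sign. Since the bins were chosen by their DEGs, these counts carry no test.

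The bin of chromosome 7 from 100000001 to 105000000 held 12 DEGs of 85 genes. They included *Ucp3*, the receptor gene *P2ry2*, the ADP-ribosyltransferases *Art1* and *Art5*, and all 7 DEGs among the 55 tested genes of the Trim family of ubiquitin ligases. Of these 7, *Trim30b*, *Trim30d*, *Trim6* and *Trim34a* fell and *Trim12c*, *Trim34b* and *Trim68* rose. Trim genes of this cluster are close paralogs, so the division of reads between them is uncertain. The bin of chromosome 14 from 65000001 to 70000000 held 8 DEGs of 48 genes, with *Entpd4* falling by 0.65 and *Clu*, the gene of the secreted chaperone clusterin, rising by 0.61. The bin of chromosome 1 from 5000001 to 10000000 held 6 DEGs of 22 genes, among them *Adhfe1* (−1.33), *Sgk3* (−1.08) and *Vxn* (0.89). On chromosome 3, the bin from 95000001 to 100000000 held *Ctsk*, *Arnt* (−0.51), *Ankrd35* (−2.07), *Zfp697* (−1.27) and the histone genes *H2ac18*, *H2bc18* and *H3c14*, with 10 DEGs of 120 genes. The bin of chromosome 4 from 145000001 to 150000000 held 8 DEGs of 82 genes, with *Fbxo44* (−2.54), *Agtrap* (−1.09), *Nppa* and 4 zinc finger genes that all fell (*Zfp982*, *Zfp993*, *Zfp268* and *Zfp984*). Among all 394 Zfp genes tested, 6 were DEGs and 5 of these fell, where 1.63% of all genes were DEGs and 1.1% fell. The division of reads between zinc finger genes that are paralogs is likewise uncertain. These bins and the genes named in them were chosen after their values were seen.

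Genes of mitochondrial fatty acid oxidation, which break fatty acids down to acetyl-CoA, were lower in KO MI by a small amount. None of the 26 genes of this list was a DEG by edgeR or by DESeq2, since none reached the minimum fold, but all 26 had a log2 fold change below 0, from −0.38 to −0.07 with a median of −0.24, where 48.3% of all genes were below 0. An unadjusted edgeR p under 0.05 was found for 17 of the 26, where 2523 of all 21142 genes had one. The adjusted p was under 0.1 at any fold for 11, where this held for 2.83% of all genes. All 17 and all 11 were lower in KO MI. Without overlap of the libraries, 8 of the 26 were lower (30.8%, against 3.67% of all genes). Summed over the list, the WT MI libraries were at 6168 to 6651 CPM and the KO MI libraries at 5253 to 5755 CPM, which do not overlap. The member with the smallest p was *Decr1*, a reductase for unsaturated fatty acids, at 119 to 144 CPM in WT MI and at 109, 95.6, 96.0 and 99.5 CPM in KO MI (−0.34, SE 0.06, adjusted p = 0.00574). *Hadha*, the alpha subunit of the trifunctional protein (chosen after its values were seen), was at 699 to 802 CPM in WT MI and 542 to 658 CPM in KO MI (−0.31, SE 0.07, adjusted p = 0.0232). Post-sham, 18 of the 26 were below 0 and the median was −0.05. The median post-MI was −0.19 without KO MI replicates 2 and 7, and −0.17 without replicates 2 and 3.

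Among PPAR targets and ketone genes, *Pdk4* and *Ucp3* fell. *Pdk4*, the kinase that blocks pyruvate dehydrogenase and is induced by fatty acids (chromosome 6, 5483097 to 5496339), was at 298, 290, 350 and 368 CPM in WT MI and at 117, 162, 93.0 and 216 CPM in KO MI. It fell by 1.15 on the log2 scale (SE 0.22, adjusted p = 0.00946) and was called under all 18 other settings, while post-sham its log2 fold change was −0.26. *Ucp3*, an uncoupling protein of mitochondria in muscle, was at 26.9, 24.4, 32.6 and 31.1 CPM in WT MI and at 13.2, 7.68, 8.30 and 26.3 CPM in KO MI (−1.07, SE 0.27, adjusted p = 0.0549). The KO MI value of replicate 7 lay within the WT MI range, and the call was lost under 8 of 18 other settings, among them the fits without KO MI replicate 2 or 3. *Angptl4*, an inhibitor of lipoprotein lipase named after its values were seen, was at 18.6 to 23.9 CPM in WT MI and at 7.07, 9.0, 5.23 and 22.0 CPM in KO MI (−1.0, adjusted p = 0.163). Of the 13 genes in the list, 2 fell (15.4%, against 1.1% of all genes), none rose and 10 were below 0, with a median of −0.30.

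*Esrrb*, a nuclear receptor related to regulators of mitochondrial genes, fell by 0.79 (SE 0.13, adjusted p = 0.00343) and *Ppargc1a*, a coactivator of mitochondrial biogenesis, by 0.63 (SE 0.16, adjusted p = 0.0623). The *Ppargc1a* call was lost under 7 of 18 other settings. These were the only DEGs among 18 cardiac transcription factors (11.1%, where 1.1% of all genes fell), whose median was −0.03. Of 82 nuclear genes of oxidative phosphorylation, 72 were below 0 with a median of −0.10, and 2 fell (2.44%, against 1.1% of all genes). One was *Atp5f1e* (−1.39), whose reads may be divided with near-identical copies, and the other was *Cox7a1*, the muscle form of a cytochrome oxidase subunit (−0.55, adjusted p = 0.0233). The *Cox7a1* call was lost under 5 of 18 other settings, among them the fit without KO MI replicate 7 (−0.43). KO MI replicate 7 lay below every WT MI library in 70 of the 82 genes and replicate 1 in 6. Without replicates 2 and 7, 41 of the 82 were below 0 and the median was 0.00. Without replicates 2 and 3 the median was −0.13, and post-sham 79 of the 82 were below 0 with a median of −0.27. The other metabolic lists had no DEG by edgeR or by DESeq2. Of 27 genes of glucose uptake and glycolysis, 6 had an unadjusted edgeR p under 0.05 (4 higher and 2 lower), where 2523 of all 21142 genes had one. The glycolysis median was 0.07, with *Pfkm*, the muscle phosphofructokinase, at −0.22 (adjusted p = 0.161). None of the 13 mitochondrially encoded messenger RNAs had an unadjusted p under 0.05, and their median was −0.10. Of 12 mitochondrial antioxidant genes 2 did, both lower (median −0.10), with *Sod2*, the mitochondrial superoxide dismutase, at −0.26 (adjusted p = 0.0875). Among 17 circadian clock genes 4 did (median 0.00), with *Cry2*, a repressor of the clock, at −0.28 (adjusted p = 0.0743). Among 21 genes of cholesterol synthesis 2 did, both higher (median 0.16), with *Hsd17b7* at 0.18 (adjusted p = 0.294).

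**Figure D3:**
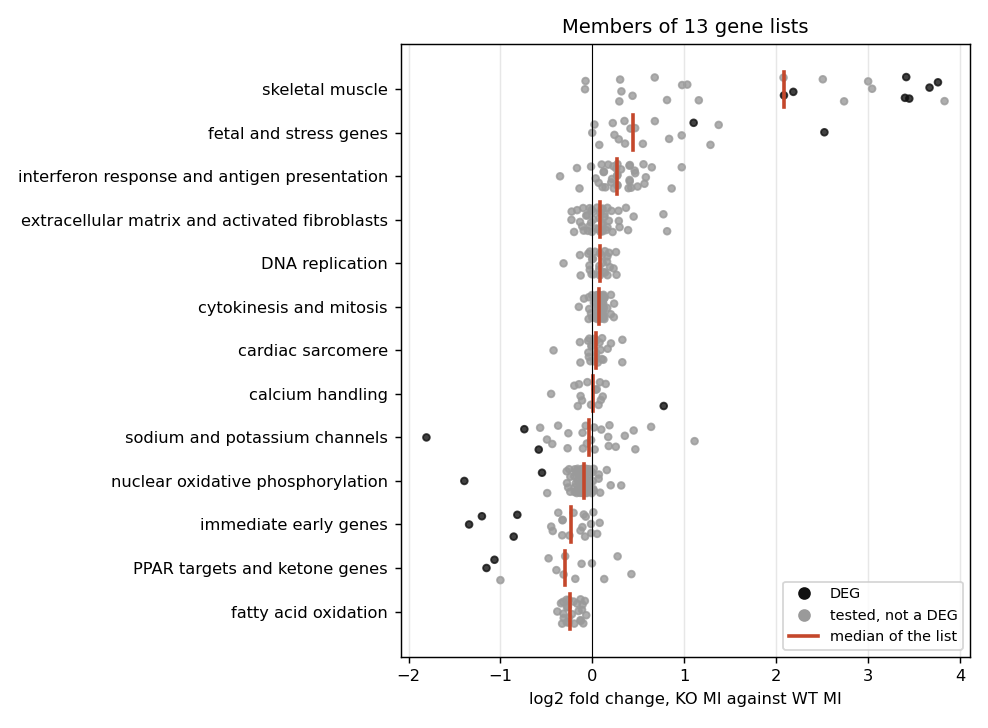
Log2 fold change of KO MI against WT MI for each tested member of 13 gene lists (points; black, DEG; grey, not a DEG) with the median of each list (red bar). The fatty acid oxidation genes all lie left of 0 within a narrow range, and the skeletal muscle genes spread far to the right.

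Immediate early genes are switched on within minutes by growth factors, calcium, stretch or stress, and many encode transcription factors. Of 22 in the list, 4 fell (18.2%, against 1.1% of all genes), none rose, and 19 were below 0 with a median of −0.23. Without overlap of the libraries, 7 of the 22 were lower in KO MI (31.8%, against 3.67% of all genes). *Nr4a1*, an orphan nuclear receptor (chromosome 15, 101151980 to 101172681), was at 8.86, 6.40, 8.99 and 8.01 CPM in WT MI and at 2.62, 3.99, 2.27 and 3.92 CPM in KO MI (−1.34, SE 0.22, adjusted p = 0.00272). *Dusp1*, a phosphatase that switches off MAP kinases, was at 25.3, 21.2, 25.4 and 21.7 CPM in WT MI and at 14.9, 12.2, 12.2 and 12.4 CPM in KO MI (−0.86, SE 0.09, adjusted p = 5.4e-05). *Klf4*, a zinc finger transcription factor, was at 19.5, 26.4, 18.2 and 27.8 CPM in WT MI and at 13.4, 11.9, 14.7 and 12.2 CPM in KO MI (−0.82, SE 0.12, adjusted p = 0.0011). For all 3 genes every KO MI library was below every WT MI library. *Fos*, a subunit of the AP-1 transcription factor named after its values were seen, was at 5.94, 5.6, 7.53 and 3.97 CPM in WT MI and at 1.91, 2.99, 2.12 and 3.04 CPM in KO MI (−1.20, SE 0.34, adjusted p = 0.0896). The mean log2(CPM + 0.5) of the list was 2.57 to 2.75 in WT MI and 2.17, 2.5, 2.23 and 2.5 in KO MI. Post-sham the median was lower, at −0.50, with 7 of the 22 falling. Without KO MI replicates 2 and 7 the post-MI median was −0.51, and without replicates 2 and 3 it was −0.33.

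The promoters of the 4 genes that fell are shown because immediate early promoters are known for cAMP response elements, to which the factor CREB binds. Each line gives 250 bases before the start of the gene on its own strand, from RefSeq, with matches to the core letters of the cAMP response element, TGACG or its reverse complement CGTCA, in capitals. In *Dusp1* the capitals TGACGTCA are the full palindromic element, in which the core letters of both strands overlap. Positions are in GRCm38.p6, another build than that of the gene positions above: *Fos* lies at chr12:85473640-85473889 (+ strand), *Nr4a1* at chr15:101266596-101266845 (+ strand), *Dusp1* at chr17:26508473-26508722 (− strand) and *Klf4* at chr4:55532476-55532725 (− strand).
Fos: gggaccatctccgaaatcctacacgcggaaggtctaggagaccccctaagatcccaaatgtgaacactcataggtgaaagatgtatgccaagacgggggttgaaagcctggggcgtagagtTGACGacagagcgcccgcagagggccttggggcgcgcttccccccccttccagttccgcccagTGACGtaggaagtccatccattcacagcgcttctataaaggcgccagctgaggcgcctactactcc
Nr4a1: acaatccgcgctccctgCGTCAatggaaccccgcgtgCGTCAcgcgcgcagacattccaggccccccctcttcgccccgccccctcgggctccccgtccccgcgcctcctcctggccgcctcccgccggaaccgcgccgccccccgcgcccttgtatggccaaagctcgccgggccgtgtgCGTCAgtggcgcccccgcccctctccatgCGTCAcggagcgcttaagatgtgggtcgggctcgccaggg
Dusp1: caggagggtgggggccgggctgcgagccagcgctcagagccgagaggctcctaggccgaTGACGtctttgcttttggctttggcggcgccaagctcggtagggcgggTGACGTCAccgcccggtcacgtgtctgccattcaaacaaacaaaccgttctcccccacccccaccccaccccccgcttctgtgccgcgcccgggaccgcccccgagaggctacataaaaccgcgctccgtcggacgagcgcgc
Klf4: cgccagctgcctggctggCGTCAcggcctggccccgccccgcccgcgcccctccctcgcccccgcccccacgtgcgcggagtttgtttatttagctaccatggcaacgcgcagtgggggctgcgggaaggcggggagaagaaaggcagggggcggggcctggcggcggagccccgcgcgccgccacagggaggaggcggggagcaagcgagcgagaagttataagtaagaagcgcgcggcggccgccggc
*Nr4a1* has 4 matches in this window, *Dusp1* has 3 (both strands of its full element included), *Fos* has 2 and *Klf4* has 1, which begins 232 bases before the start. RefSeq gave 24 promoters for 18 of the 22 genes, and 17 of the 24 held the core letters on either strand (70.8%), against 5836 of 32851 promoters of all genes (17.8%). The full element stood in 3 of the 24 (12.5%) and in 508 of all promoters (1.55%). Base composition was not matched, and a match is a stretch of letters and not a measured site.

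Potassium channel genes accounted for 3 falls among 26 genes of sodium and potassium channels, and none of the 26 rose, where 1.1% of all genes fell. An unadjusted edgeR p under 0.05 was found for 12 of the 26 (3 higher and 9 lower), and for 2523 of all 21142 genes. *Kcnd2*, which encodes an alpha subunit of the fast transient outward current of early repolarization (chromosome 6, 21214866 to 21729804), was at 8.48, 6.29, 7.44 and 9.87 CPM in WT MI and at 3.68, 1.02, 2.27 and 2.21 CPM in KO MI. It fell by 1.81 on the log2 scale (SE 0.24, adjusted p = 3.89e-04). *Kcnd3*, its paralog in the same current, was at 1.1 to 1.35 CPM in WT MI and at 0.491 to 1.02 CPM in KO MI and fell by 0.74 (adjusted p = 0.0808), a call lost under 9 of 18 other settings. *Kcnk3*, a two-pore leak channel, was at 48.8, 41.9, 45.4 and 44.3 CPM in WT MI and at 33.8, 29.8, 33.0 and 23.6 CPM in KO MI (−0.58, SE 0.10, adjusted p = 0.00299). *Kcnip2*, the auxiliary subunit of the Kcnd channels, was named after its values were seen and had a log2 fold change of −0.44 (adjusted p = 0.317). The median of the list was −0.04.

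Among 16 calcium handling genes the only DEG was *Cacna1g*, the T-type calcium channel of the fetal heart and of pacemaker cells, at 34.1, 39.9, 39.2 and 28.5 CPM in WT MI and at 61.1, 56.8, 56.2 and 68.4 CPM in KO MI (0.78, SE 0.09, adjusted p = 5.67e-05). The median of the 16 genes was 0.01. The 25 cardiac sarcomere genes had no DEG by edgeR or DESeq2, 2 with an unadjusted edgeR p under 0.05, and a median of 0.03. Among them *Fhl2*, a LIM protein of the sarcomere, was at 185 to 197 CPM in WT MI and at 121 to 170 CPM in KO MI (−0.42, SE 0.08, adjusted p = 0.00923), under the minimum fold.

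Fetal and stress genes, which the diseased or loaded ventricle re-expresses, were above 0 in 17 of 18 with a median of 0.44. Of the 18, 2 rose (11.1%, against 0.534% of all genes). *Ankrd1*, a stretch-responsive cofactor of the sarcomere and nucleus (chromosome 19, 36089352 to 36097506), was at 244, 238, 261 and 244 CPM in WT MI and at 371, 999.8, 362 and 382 CPM in KO MI (1.1, SE 0.26, adjusted p = 0.0321). All 4 KO MI libraries were above WT MI, and replicate 2 was far above the other 3. Without replicate 2 the log2 fold change of *Ankrd1* was 0.59, and its edgeR adjusted p was 0.178 with only the MI libraries and 0.114 with a robust fit. *Nppa*, atrial natriuretic peptide (chromosome 4, 148085091 to 148086583), was at 206, 179, 110 and 135 CPM in WT MI and at 307, 2391, 776 and 150 CPM in KO MI (2.52, SE 0.60, adjusted p = 0.0387). Replicate 7 was within the WT MI range, and without replicate 2 the log2 fold change was 1.38 (adjusted p = 0.172). *Myh7*, the slow myosin of the fetal ventricle, was at 556, 563, 682 and 389 CPM in WT MI and at 885, 1060, 774 and 2949 CPM in KO MI, with no overlap but an adjusted p of 0.192. The score of the list was 4.74 to 4.89 in WT MI and 4.90, 6.09, 5.13 and 4.75 in KO MI. The median of the list was 0.12 without KO MI replicates 2 and 7 and −0.10 without replicates 2 and 3.

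Of 24 skeletal muscle genes tested, 7 rose (29.2%) and 22 were above 0, where 0.534% of all genes rose and 51.7% were above 0. The list had a median of 2.08, yet no member separated the 2 groups. Scores were 2.22 and 2.48 in KO MI replicates 2 and 7, 0.40 and 0.74 in KO MI replicates 1 and 3, and 0.40 to 1.05 in WT MI. Without replicates 2 and 7 the median was −0.46. *Casq1*, the calcium-binding protein of the fast muscle sarcoplasmic reticulum, was at 10.5, 12.3, 10.2 and 7.92 CPM in WT MI and at 27.2, 113, 34.6 and 10.4 CPM in KO MI (2.18, SE 0.46, adjusted p = 0.0181), so that replicate 7, the highest in the skeletal score, was the one within the WT MI range. Without replicate 2 its log2 fold change was 1.24, and the call was lost without replicates 2 and 3 (adjusted p = 0.186) and with only the MI libraries (0.16). *Myh8*, *Myh1* and *Tnni2*, skeletal myosins and a fast troponin, were high in replicates 2 and 7, and their calls were lost under 7 of 18, 10 of 17 and 7 of 17 other settings. All 5 atrial genes were above 0 (median 1.41) without a DEG by edgeR or DESeq2 and with 1 unadjusted edgeR p under 0.05, with *Myl4* at 3.6 to 21.7 CPM in WT MI and 8.09 to 66.2 CPM in KO MI. The 17 genes named in the study's text were chosen there on these libraries, and 4 of them rose.

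The cell cycle lists held no DEG. None of 43 genes of cytokinesis and mitosis and none of 29 genes of DNA replication was a DEG by edgeR or DESeq2. An unadjusted edgeR p under 0.05 was found for 0 of the 43 and for 5 of the 29 (4 higher and 1 lower), against 2523 of all 21142 genes. Their medians were 0.07 and 0.08 post-MI against −0.19 and −0.22 post-sham. Without KO MI replicates 2 and 3 the post-MI medians were −0.14 and −0.02, and without replicates 2 and 7 they were 0.01 and 0.06. *Cdc20*, the activator of the anaphase-promoting complex, was at 8.36 to 10.3 CPM in WT MI and at 7.92 to 12 CPM in KO MI (0.13, adjusted p = 0.748). *Aurkb*, a kinase of cytokinesis, had a log2 fold change of 0.12 (adjusted p = 0.848), and *Ccnb1*, the mitotic cyclin, 0.05 (adjusted p = 0.943). The libraries differed among themselves, since KO MI replicate 2 was above every WT MI library in 39 of the 43 mitosis genes and replicate 7 was below every WT MI library in 20. *Cdk6*, a kinase of entry into the cycle, was at 78.0 to 85.1 CPM in WT MI and at 64.6 to 68.7 CPM in KO MI (−0.27, SE 0.05, adjusted p = 0.00545), below the minimum fold. None of the 21 G1 regulators was a DEG by edgeR or DESeq2, and 3 had an unadjusted edgeR p under 0.05. *Nrg1* was the only DEG among 18 growth signaling and imprinted genes (median 0.13). Among 13 Hippo-YAP genes there was no DEG by edgeR or DESeq2, 3 had an unadjusted edgeR p under 0.05 and the median was −0.01, with *Wwtr1*, which encodes the coactivator TAZ, at −0.32 (SE 0.06, adjusted p = 0.00468). Replication-dependent histones had 2 rises (*H3c14*, 3.85, and *H2bc18*, 0.71) and 1 fall (*H2ac18*) among 62, and a median of 0.02. Together these DEGs were 4.84% of the list, against 1.63% of all genes.

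Immune lists held no DEG by edgeR, while DESeq2 called *Fcgr1*, *S100a8*, *Cxcl1* and *Psmb8*, 1 in each of 4 lists. Over all genes tested, 2523 of 21142 had an unadjusted edgeR p under 0.05. The 26 macrophage genes had a median of 0.09, 7 with an unadjusted edgeR p under 0.05 (5 higher), and *Fcgr1*, an Fc receptor, at −1.08 (adjusted p = 0.192). Without KO MI replicates 2 and 7 the macrophage median was 0.20 with 2 DEGs, both higher, and without replicates 2 and 3 it was −0.33 with none by edgeR. Of 12 neutrophil genes, 11 were below 0 with a median of −0.48, and 3 had an unadjusted edgeR p under 0.05. *S100a8*, an abundant calcium-binding protein of neutrophils, was at 1.18 to 3.91 CPM in WT MI and 0.874 to 1.85 CPM in KO MI (−1.10, adjusted p = 0.116). The 10 T lymphocyte genes had a median of 0.10 and the 5 B lymphocyte genes 0.13, with 0 unadjusted edgeR p under 0.05 in both. The B lymphocyte median was 0.63 without KO MI replicates 2 and 7 and −0.55 without replicates 2 and 3. The 31 chemokine, cytokine and complement genes had a median of 0.13 and 4 unadjusted p under 0.05, with *Cxcl1*, a chemokine for neutrophils, at −0.81 (adjusted p = 0.122). Of 38 genes of the interferon response and antigen presentation, 34 were above 0 with a median of 0.27, where 51.7% of all genes were above 0, and 12 had an unadjusted edgeR p under 0.05, all higher. *Ifit2*, an interferon-induced inhibitor of viral translation, was at 19.3, 22.8, 23 and 22.9 CPM in WT MI and at 27.6, 33.6, 28.6 and 31.1 CPM in KO MI (0.46, SE 0.09, adjusted p = 0.0113), just under the minimum fold. Among the other 37 none had an adjusted p under 0.1. The interferon median was 0.36 without KO MI replicates 2 and 7, where 6 genes were DEGs, all higher, against 102 higher DEGs among all genes. It was 0.28 without replicates 2 and 3, where 1 gene was a higher DEG, against 70 among all genes. Post-sham it was 0.12. The interferon score was 1.69 to 2.05 in WT MI and 2.35, 2.07, 2.23 and 2.02 in KO MI replicates 1, 2, 3 and 7. Both fits keep replicate 1, the highest library, so they cannot show how far the rise rests on it.

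Of 10 erythroid genes, 7 were above 0 and 3 below, down to −1.19. Their median was 0.32, and −0.11 without KO MI replicates 2 and 3. The only member without overlap of the libraries was lower in KO MI (10%, against 3.67% of all genes). The DEGs of the list were 2 rises (20%, against 0.534% of all genes). These were *Alas2*, the first enzyme of heme synthesis in red cells (1.07, adjusted p = 0.0286), and *Hba-a2* (0.81, adjusted p = 0.0875), an alpha globin whose near-identical copy shares its reads. *Alas2* was at 23.5, 18.2, 21.9 and 25.8 CPM in WT MI and at 51.4, 71.3, 44.9 and 19.2 CPM in KO MI, so that replicate 7 was within the range of WT MI. Calls for *Hba-a2* and *Alas2* were lost under 9 and 3 of 18 other settings, and *Hba-a2* lost its call without KO MI replicate 1, 2 or 3 alone (adjusted p = 0.161, 0.26 and 0.122). The erythroid score was 3.70 to 4.07 in WT MI and 4.27, 4.51, 4.07 and 3.07 in KO MI. Stromal lists other than the epicardial one had no DEG by edgeR or DESeq2. Of all 21142 genes tested, 2523 had an unadjusted edgeR p under 0.05. Extracellular matrix and activated fibroblast genes had a median of 0.08 (45 genes, 6 with an unadjusted edgeR p under 0.05), with *Col6a3*, a collagen VI chain, at −0.23. Endothelial genes had a median of −0.04 (25 genes, 4 with such a p, all lower), with *Fabp4*, a fatty acid binding protein of capillaries, at −0.28 (adjusted p = 0.0611). Smooth muscle and pericyte genes had a median of 0.02 (10 genes, 1 with such a p), with *Cnn1*, calponin, at 1.11 (adjusted p = 0.252). The 9 nerve and Schwann cell genes had a median of 0.17 and 1 such p, with *Ngfr* at 0.34. *Tbx18*, a transcription factor of the epicardium, fell by 0.52 (adjusted p = 0.0534), the only DEG among 10 epicardial genes (10%, against 1.1% of all genes). Its call was lost under 6 of 18 other settings. Unlike *Tbx18*, 7 of the 10 were above 0, and the list median was 0.14, and −0.48 without KO MI replicates 2 and 3. Post-sham the list median was 1.285, with 6 rises and 1 fall, where 2.47% of all genes rose and 2.52% fell. Of the adipocyte, lung epithelium and cartilage lists only 1, 2 and 3 genes had enough reads to be tested, and none was a DEG by edgeR or DESeq2 or had an unadjusted p under 0.05, nor did any of 5 sex-linked genes. *Acan*, a cartilage proteoglycan, was at −0.52 (adjusted p = 0.491).

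Stress and translation genes gave single calls. *Psat1*, an enzyme of serine synthesis, was at 4.96 to 6.03 CPM in WT MI and at 6.44, 10.5, 7.59 and 6.96 CPM in KO MI (0.57, SE 0.13, adjusted p = 0.0313), the only DEG among 20 genes of the integrated stress response, which had a median of 0.14. The *Psat1* call was lost under 6 of 18 other settings, among them the fit without KO MI replicate 2 (0.40). The 12 heat shock genes had no DEG by edgeR or DESeq2, 2 unadjusted edgeR p under 0.05 and a median of 0.12, with *Hspa8*, a constitutive chaperone, at 825 to 884 CPM in WT MI and 892 to 1061 CPM in KO MI (0.18, adjusted p = 0.195). Cytosolic ribosomal protein genes had 2 falls among 81, *Rpl29* and *Rps15a* (−0.62, adjusted p = 0.00325), and a median of 0.03. Mitochondrial ribosomal protein genes had 2 falls among 77, *Mrpl52* and *Mrpl3* (−0.74, adjusted p = 0.0013), and a median of 0.00. The falls were 2.47% and 2.6% of these lists, against 1.1% of all genes. *Rpl29* was at 57.0, 60.1, 98.4 and 56.1 CPM in WT MI and at 18.1, 20.5, 17.2 and 20.6 CPM in KO MI. Ribosomal protein genes have many processed copies in the genome, and the division of their reads is uncertain.

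The KO MI libraries varied more among themselves than the WT MI libraries. Over 14174 genes with a mean of at least 1 CPM, the SD of log2(CPM + 0.5) had a median of 0.155 in KO MI and 0.0985 in WT MI, and it was larger in KO MI for 10494 genes (74%). An SD of at least 1 was found for 79 genes in KO MI and 41 in WT MI. The number of genes at least 1 log2 unit above all other 7 MI libraries was 34 for KO MI replicate 2 and 20 for replicate 3. Replicates 7 and 1 had 9 and 4 such genes, against between 0 and 3 in single WT MI libraries.

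**Figure D4:**
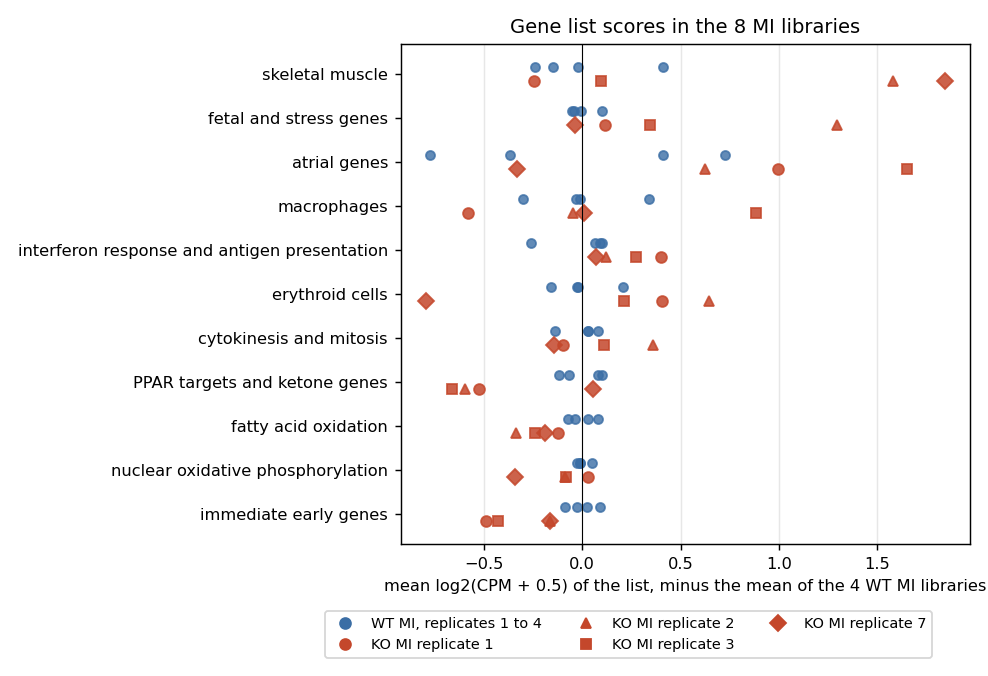
Mean log2(CPM + 0.5) of 11 gene lists in each MI library, as the difference from the mean of the 4 WT MI libraries (blue, WT MI; red, KO MI, with a symbol for each replicate). KO MI replicates 2 and 7 are high in skeletal muscle genes, replicate 2 in fetal and stress genes and replicate 3 in macrophage genes, while all 4 KO MI libraries lie below the WT MI libraries in fatty acid oxidation and immediate early genes.

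Each KO MI library had genes of its own that stood out. In replicate 1 these were interferon-induced GTPases: *Iigp1* was at 35.0 CPM there and at 6.91 to 10.2 CPM in the other 7 MI libraries, and *Igtp*, *Tgtp2* and *Tgtp1* were at 8.51, 4.12 and 3.11 CPM. The interferon score of replicate 1 was 2.35, the highest of the 8 libraries. In replicate 2 they were *Lrp8*, *Xirp2*, *Gdf6* and *Acta1*. *Xirp2*, an actin-binding protein of the intercalated disc, was at 2482 CPM there and at 203 to 552 CPM elsewhere, and *Acta1*, skeletal alpha actin, at 410 CPM and at 35.1 to 119 CPM elsewhere. *Lrp8*, a reelin receptor, and *Gdf6*, a BMP family ligand, were at 15.3 and 9.87 CPM in replicate 2.

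Replicate 3 stood out by *Chil3* and *Retnla*, secreted products of alternatively activated macrophages, at 34.4 and 16.6 CPM, and the macrophage score was 2.54 there and 1.08 to 2.0 in the other 7 libraries. *Col6a5*, a collagen VI chain, was at 155 CPM in replicate 3 and at 3.52 to 15.3 CPM elsewhere, and *Sbk3* at 15.6 CPM. The B lymphocyte score of that library was 1.05 and at most 0.40 in the others, with *Ms4a1*, which encodes CD20, at 4.04 CPM. Replicate 7 stood out by *Myh3*, embryonic skeletal myosin, at 34.2 CPM, *Ryr1*, the skeletal calcium release channel, at 8.46 CPM, and *Myh7* at 2949 CPM. It also had the lowest erythroid score, the lowest oxidative phosphorylation score (5.34, others 5.6 to 5.74) and the smallest total count of the 8 libraries. The part of other cell types in these values was not tested.

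**Figure D5:**
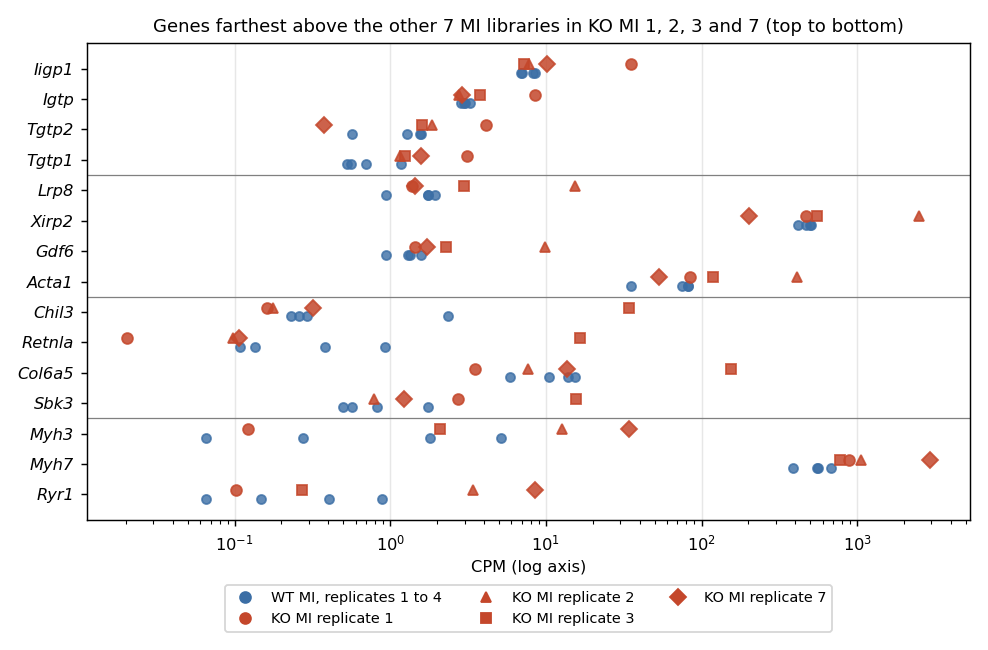
Level of 3 or 4 genes that lie farthest above the other 7 MI libraries in each KO MI library, in CPM on a log axis, with blocks from top to bottom for KO MI replicates 1, 2, 3 and 7 (blue, WT MI; red, KO MI, with a symbol for each replicate). In each block 1 red symbol lies to the right of all others, such as *Chil3* at 34.4 CPM in replicate 3.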

How the data were processed

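RNA of whole ventricles was depleted of ribosomal RNA and sequenced as stranded read pairs of total RNA. Per the paper's methods, adapters were trimmed with Skewer, reads were aligned to GRCm39 with STAR and expression was estimated with RSEM. The submitters' processing notes list other tools (cutadapt 3.4, HISAT2 2.2.1, RSEM 1.1.17, bcl2fastq 2.17, FastQC and DESeq2), and which were used for the table was not settled. The authors deposited expected counts per gene as whole numbers without normalization for all 16 libraries, and the annotation release is not given in the sources used here. Gene names and positions come from GENCODE M39, which held 47772 of the 51912 identifiers, and identifiers with no match had 0.57% to 0.786% of the counts of a library. RSEM divides reads that fit several genes, so paralogs and copies are uncertain.

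Counts were fitted in edgeR 4.0.16 (R 4.3.3, limma 3.58.1) with TMM scaling and one coefficient per group over all 16 libraries. A gene was tested where the libraries of both groups compared summed to 10 counts or more. Two-sided quasi-likelihood F-tests were made for KO against WT post-MI, for KO against WT post-sham and for the difference between these. DEGs passed 0.1 after Benjamini-Hochberg adjustment over every gene tested, with a log2 fold change of 0.5 or more in size. Standard errors come from the same fit. Single genes were also compared by a two-sided exact permutation test on log2(CPM + 0.5), and list scores are means of that value. On simulated counts for KO MI against WT MI (21142 genes, 200 of them changed), 95% of 2-fold and 100% of 4-fold changes were called, and 7.58% of calls were false. The changed genes were drawn only from those that averaged at least 1 CPM, so recovery below that level was not tested. Whether these percentages hold for the real libraries, whose spread was larger in KO MI than in WT MI, was not tested. The number of a replicate did not pair the libraries. Correlations of deviations between same-numbered MI libraries were 0.0754, 0.165 and 0.0457, and the labels name no shared animal or batch. No 2 libraries of the same group were the same within sampling noise, and pairs across groups were not compared.

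The genes named are *Lrrc10*; genes in the study's text; the 15 largest rises and falls among protein-coding DEGs with a plain gene symbol that averaged 1 CPM or more and did not overlap between the groups; up to 3 DEGs of each of 43 gene lists (or the member with the smallest p); and the 4 genes highest above the other MI libraries in each KO MI library. Where another gene is named, the text says that this was done with its values in view. The comparison, the lists and the rule were chosen with earlier results of these data known. Values of some genes are not reported here. Alternatives were DESeq2 1.42.0, its size factors in edgeR, other filters, a robust fit, only the MI libraries, the replicate number as a block, other thresholds and left-out libraries, 1 or 2 at a time.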

Additional observations from a re-analysis of the deposited data

Results flagged for a closer look

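Among 258 groups of 4 libraries tested for a single outlying library with Dixon's ratio, over the named genes and list scores of both MI groups, 17 had one, where chance gives about 1 in 20. Outlying WT MI libraries were those of *Lynx1* (44.5 CPM in replicate 2, 79.0 to 80.2 in the others), *Rpl29* (98.4 CPM in replicate 3), *Tpm3-rs7* (8.25 CPM in replicate 4, 1.01 to 1.22 in the others), *Atp5f1e* (6.97 CPM in replicate 1, 18.7 to 19.4 in the others), *Ddc* (10.3 CPM in replicate 4), *Decr1* (144 CPM in replicate 4), *Pfkm* (161 CPM in replicate 2) and *Ifit2* (19.3 CPM in replicate 1). Outlying KO MI libraries were those of *Ankrd1* (999.8 CPM in replicate 2, 362 to 382 in the others), *Hif3a* (3.6 CPM in replicate 7, 1.85 to 1.89 in the others), *Dusp1* (14.9 CPM in replicate 1), *Fabp4* (84.4 CPM in replicate 1) and *Col6a3* (134 CPM in replicate 7). For *Atp5f1e* the low WT MI library lay within the KO MI range of 5.39 to 7.52 CPM.

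Scores (mean log2(CPM + 0.5)) stood apart for heat shock genes (5.79) and smooth muscle genes (5.6) in KO MI replicate 2, for mitochondrial ribosomal protein genes in KO MI replicate 7 (3.32) and for interferon genes in WT MI replicate 1 (1.69). The 2 MI groups without WT MI replicate 1 were at 2.02 to 2.35 in the interferon score.

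The genotype difference post-MI minus that post-sham passed the edgeR interaction test (Benjamini-Hochberg adjusted p under 0.1) with log2 differences of 2.99 for *Nr4a3*, 1.68 for *Gm43605*, 0.84 for *Sik1*, 0.63 for *Tomm40* and −0.51 for *Bhlhb9*. Their adjusted p-values were 0.00321, 0.0123, 0.0401, 0.0896 and 0.060.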

How the results depend on the processing

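The 345 post-MI DEGs became 199 with only the MI libraries in the fit, 211 without KO MI replicates 2 and 3, and 598 with no minimum fold, and 236 (without WT MI replicate 1) to 580 (without KO MI replicate 7) with 1 library left out. The 113 rises became 170 with no filter, 45 with only the MI libraries, 185 with the replicate block, 70 without KO MI replicates 2 and 3, 67 at an adjusted p under 0.05, 194 with no minimum fold and 68 to 221 with 1 library left out. The 232 falls became 154, 141 and 404 with only the MI libraries, without KO MI replicates 2 and 3 and with no minimum fold, and 168 to 359 with 1 library left out. DESeq2 gave 446 DEGs, the replicate block 504, and no other setting moved the total by over 1.5 times. The numbers of the replicates did not pair the libraries, so for all but replicate 7 the block only shares a number. No other group holds a replicate 7, so the block fit gives KO MI replicate 7 a coefficient of its own. That fit thus leaves this library out of the comparison, as the fit without KO MI replicate 7 does. Post-sham, 1006 DEGs became 668 (without WT SH replicate 1) to 1225. The 5 interaction DEGs became 209 with DESeq2, 689 with the block and 2 to 831 with 1 library left out (831 without KO MI replicate 7, 157 without WT SH replicate 4). The cause of these moves was not tested.

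Of log2 fold changes of named genes under these settings, 1589 kept their direction and side of the threshold, 133 lost a call and 52 gained one. Without KO MI replicates 2 and 3 the sign turned for *Cdc20* (−0.12), *Aurkb* (−0.19), *Ccnb1* (−0.28), *Lrp8* (−0.18), *Xirp2* (−0.49), *Chil3* (−1.72), *Retnla* (−2.65) and *Col6a5* (−0.42). Without replicates 2 and 7 it turned for *Actn3* (−1.11), *Myh3* (−0.72), *Myh1* (−0.77), *Tnnt3* (−0.51) and *Ryr1* (−0.99).
With 1 library left out, the log2 fold change ran from −0.0008 to 0.23 for *Aurkb*, −0.11 to 0.16 for *Ccnb1*, −0.0223 to 0.97 for *Ms4a1*, −0.21 to 1.3 for *Xirp2*, −1.86 to 5.07 for *Chil3*, −2.35 to 4.33 for *Retnla* and −0.47 to 2.37 for *Col6a5*. None of these 14 genes was a DEG post-MI apart from *Myh1*. At this depth a level under 0.08 CPM in 1 library cannot be told from 0, and 4 libraries a group leave small differences of variable genes undetected.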
